A study of Homo sapiens with 8 samples.

Results

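The small RNA profile of MEC-1, an established B-cell line grown from a patient with chronic lymphocytic leukaemia (CLL), is described here from 3 libraries of cells, cell replicates 1, 2 and 3, among the 8 libraries of a study of exosomes and their parental cells. They were taken by their label as cells; the other libraries were not used, and no treatment, genotype or time separates the 3. The cells were those of compartmented bioreactors run for exosome production in medium with fetal calf serum, RNA under 200 nt was isolated on columns (miRNeasy Micro), and 30 ng of it was made into each NEBNext small RNA library with 15 PCR cycles. All 3 libraries thus stand for 1 line in 1 culture system. Whether they are separate cultures is stated nowhere in the sources used here, and the spread between them may be technical.

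A microRNA (miRNA) is cut from a hairpin transcript as an RNA of about the length of the sequences printed here, and pairs with target messenger RNAs mainly through its seed, bases 2 to 8, which lowers their translation and stability. Box C/D small nucleolar RNAs (snoRNAs) guide the 2'-O-methylation of ribosomal RNA (rRNA) and H/ACA snoRNAs its pseudouridylation; most human snoRNAs are released from introns of host genes, many of which encode parts of the translation machinery. In B lymphocytes, miR-155 accompanies activation, miR-150 marks resting mature cells, and loss of the miR-15a and miR-16-1 locus is a frequent lesion of CLL.

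Mature sequences of leading seed families are shown first, together with miR-26 for its wide spread between libraries and miR-16 for the CLL locus, because several results turn on shared seeds. The counts are per hairpin and do not tell the 5p from the 3p arm, so the arm printed is the one generally known as the main product. The mature sequences are from RefSeq (GRCh38), with the seed in capitals.
hsa-miR-148a-3p: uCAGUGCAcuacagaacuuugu
hsa-miR-21-5p: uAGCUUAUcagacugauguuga
hsa-let-7f-5p: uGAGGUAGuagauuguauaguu
hsa-let-7i-5p: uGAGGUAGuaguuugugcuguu
hsa-let-7g-5p: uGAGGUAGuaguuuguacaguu
hsa-let-7a-5p: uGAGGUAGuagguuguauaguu
hsa-let-7b-5p: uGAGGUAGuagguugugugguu
hsa-miR-92a-3p: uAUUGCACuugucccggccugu
hsa-miR-25-3p: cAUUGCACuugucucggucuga
hsa-miR-26a-5p: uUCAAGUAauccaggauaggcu
hsa-miR-26b-5p: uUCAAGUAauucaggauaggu
hsa-miR-16-5p: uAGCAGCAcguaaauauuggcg

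The most abundant C/D box snoRNAs are shown next, with 2 runs of letters in capitals: TGATG within the first 15 bases, part of box C, and CTGA within the last 15, box D. The sequences are transcripts of GENCODE release 29 (GRCh38), written as DNA on the transcribed strand.
SNORD2: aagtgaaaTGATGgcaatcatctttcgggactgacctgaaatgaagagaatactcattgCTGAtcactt
SNORD101: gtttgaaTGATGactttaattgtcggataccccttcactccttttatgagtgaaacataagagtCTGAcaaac
SNORD63: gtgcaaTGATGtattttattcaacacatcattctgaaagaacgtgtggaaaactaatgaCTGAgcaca
SNORD18A: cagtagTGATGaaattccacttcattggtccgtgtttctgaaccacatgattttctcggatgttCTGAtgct
TGATG was found at the start of 83.6% of the 226 C/D box snoRNAs with a sequence and of 1.14% of the 88 H/ACA snoRNAs, and CTGA at the end of 93.4% and 3.41%. The trinucleotide ACA, which closes H/ACA snoRNAs, stood 3 bases from the end of 71.6% of the H/ACA and 1.33% of the C/D sequences. The labels of both classes therefore went with their letters. TGATG was held by 83.7% of the detected and 83.5% of the undetected C/D box snoRNAs. For H/ACA snoRNAs, ACA stood 3 bases from the end of 77.1% of the 48 detected and 65% of the 40 undetected entries.

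The tables gave raw read counts for 2709 non-coding RNA features. The totals were 25675636 counts in cell 1, 54461350 in cell 2 and 57323598 in cell 3. A level is given below as CPM, counts scaled to a library total of 1000000, and as miRNA CPM, scaled to the same number of miRNA counts, where the share of miRNA reads is meant. CPM per kilobase of counted length (RPKM) serve where features of different length are compared. A feature counted as detected at 1 CPM or more in all 3 libraries, and 716 features passed, against 802 without cell 2. A count of 0 allows up to 3 counts, which is 0.117, 0.0551 and 0.0523 CPM in cells 1, 2 and 3. The libraries carried no molecular identifiers, so such limits cover counting error only. Cell 2 stood apart from the other 2 libraries, and values without it are given for the main counts, shares and orders.

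Most reads of the MEC-1 cells fell on 3 classes of RNA (see the plot of class shares). Long non-coding genes, which hold many small RNAs within their spans, took 29.4%, 37.9% and 31.3% of the reads of cells 1, 2 and 3, or 32.9% ± 4.45 (SD, n = 3). Ribosomal RNA took 30.7%, 26.0% and 24.6%, or 27.1% ± 3.20 (SD, n = 3). C/D box snoRNAs took 19.6%, 25.9% and 30.6%, or 25.4% ± 5.54 (SD, n = 3). These 3 classes overlapped in their ranges, and their order was not the same in all 3 libraries. The 1358 miRNA entries took 12.2%, 6.22% and 6.68%, or 8.36% ± 3.32 (SD, n = 3), below each of the 3 leading classes in every library. Counting error is small beside this spread: the 95% Wilson interval of a class share reached at most 0.0178 percentage points to either side. Without cell 2, the mean shares were 30.3%, 27.6%, 25.1% and 9.43% in the same order.

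**Figure D1:**
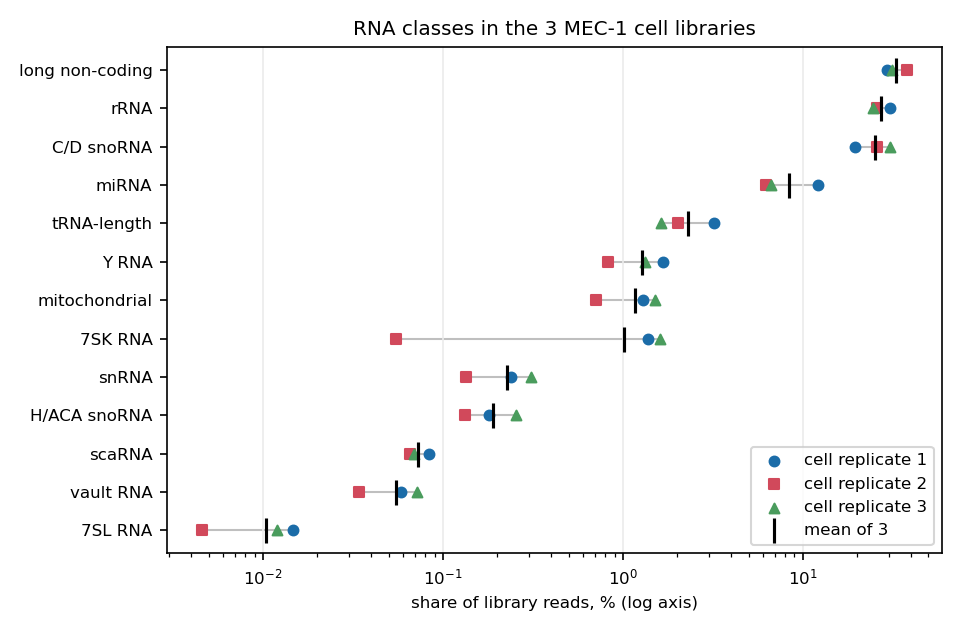
Share of library reads (%, log axis) taken by each of 13 RNA classes in the 3 MEC-1 cell libraries; points are libraries, grey lines span them and black ticks are their means. Long non-coding genes, rRNA and C/D box snoRNAs lie above miRNAs in all 3 libraries, and 7SK RNA has the widest span, from 0.0550% in cell 2 to 1.62% in cell 3.

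The other 9 classes each took under 3% of reads in the mean. Numbered features with the length of transfer RNAs (tRNA-length features) took 2.29% ± 0.830 (SD, n = 3). Y RNAs, the cytoplasmic partners of Ro60, took 1.28% ± 0.430 (SD, n = 3). Mitochondrial RNAs took 1.17% ± 0.420 (SD, n = 3), and 7SK RNA, which holds the elongation factor P-TEFb inactive, 1.02% ± 0.841 (SD, n = 3). Spliceosomal and related small nuclear RNAs (snRNAs) took 0.227% ± 0.0884 (SD, n = 3) and H/ACA snoRNAs 0.190% ± 0.0613 (SD, n = 3). Small Cajal body RNAs (scaRNAs), vault RNAs and 7SL RNAs took 0.0726%, 0.0549% and 0.0104% in the mean.

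A handful of features held most of each library. The 4, 4 and 5 most abundant features made up 50% of the reads of cells 1, 2 and 3, and 40, 24 and 40 made up 90%. The single most abundant feature was a 5.8S rRNA entry, RNA5-8S5, with 163556, 192427 and 106429 CPM.

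Of the 1358 miRNA entries, 151 (11.1%) were detected and 601 (44.3%) had no read in any library. Without cell 2, 185 were detected. Only 34 reached 1000 miRNA CPM in all 3 libraries and 11 reached 10000. The 20 entries of highest mean held 88.8% of miRNA reads, and 14 entries were among the 20 highest of every library, or 17 without cell 2. In cells 1 and 3 the first 3 entries held 50% of miRNA reads, and in cell 2 the first entry alone did. Adjacent entries in the ranking mostly changed places between libraries: of the 19 neighbouring pairs among the 20 highest, 2 kept their order in all 3 libraries and 1 had ranges that did not overlap. An order that holds in 3 of 3 libraries has a smallest possible exact two-sided sign-test p of 0.25, so no order was tested.

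MIR148A, whose product is known to promote plasma cell differentiation, had the highest mean (chromosome 7, 25989539 to 25989606, minus strand, GRCh37). Its level was 174663, 546237 and 197235 miRNA CPM in cells 1, 2 and 3 and was highest in cell 2. MIR21, a widely expressed miRNA that represses the tumour suppressor PDCD4 (chromosome 17, 57918627 to 57918698, plus strand), stood at 312297, 113933 and 282887 miRNA CPM. The order of the pair was therefore not fixed: MIR21 was the higher in cells 1 and 3 and MIR148A in cell 2, on the miRNA CPM scale and also per kilobase. Without cell 2 the means were 185949 miRNA CPM for MIR148A and 297592 for MIR21, so the higher mean of MIR148A rested on cell 2. Together the pair held 48.7%, 66.0% and 48.0% of miRNA reads, and 48.4% in the mean without cell 2. The ranges of both lay above that of every other miRNA.

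The let-7 family, which represses RAS, MYC and HMGA2 messages and shares the seed GAGGUAG, came next as a group. Of its 12 entries 11 were detected, against 11.1% of all miRNA entries. The median member level was 1600 CPM against 0.0116 CPM over all miRNA entries. The family took 24.9%, 14.6% and 25.8% of miRNA reads, or 21.8% ± 6.20 (SD, n = 3), and 25.3% in the mean without cell 2. MIRLET7F2 led it with 55609, 32232 and 55503 miRNA CPM. MIRLET7I had 48296, 39452 and 36313 miRNA CPM, a narrower range. MIRLET7G, in contrast, stood at 25079, 5929 and 34982 miRNA CPM, its lowest value again in cell 2. MIRLET7B went the other way, with 5088, 12227 and 4841 miRNA CPM, so the members of the family did not share one order of the libraries. The member not detected was MIRLET7E, at 1.17, 0.367 and 0.715 CPM.

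Other abundant miRNAs each held a few percent of miRNA reads or less (see the plot of the 20 highest miRNAs). MIR92A2, a copy of the miR-92a hairpin in the miR-106a-363 cluster on chromosome X, had 17931, 30958 and 21168 miRNA CPM. MIR423 had 17932, 28893 and 15951 miRNA CPM. MIR378A had 15643, 18002 and 18232 miRNA CPM, the narrowest range among the 20 on this scale. MIR30D, MIR27A and MIR25 had means of 18317, 14544 and 11951 miRNA CPM, and all 3 were lowest in cell 2. MIR146B, a relative of the NF-kB-induced miR-146a, had 8955, 5950 and 17321 miRNA CPM. MIR26A2, whose product represses the histone methyltransferase EZH2, had 7506, 817 and 10697 miRNA CPM, the widest range among the 20.

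**Figure D2:**
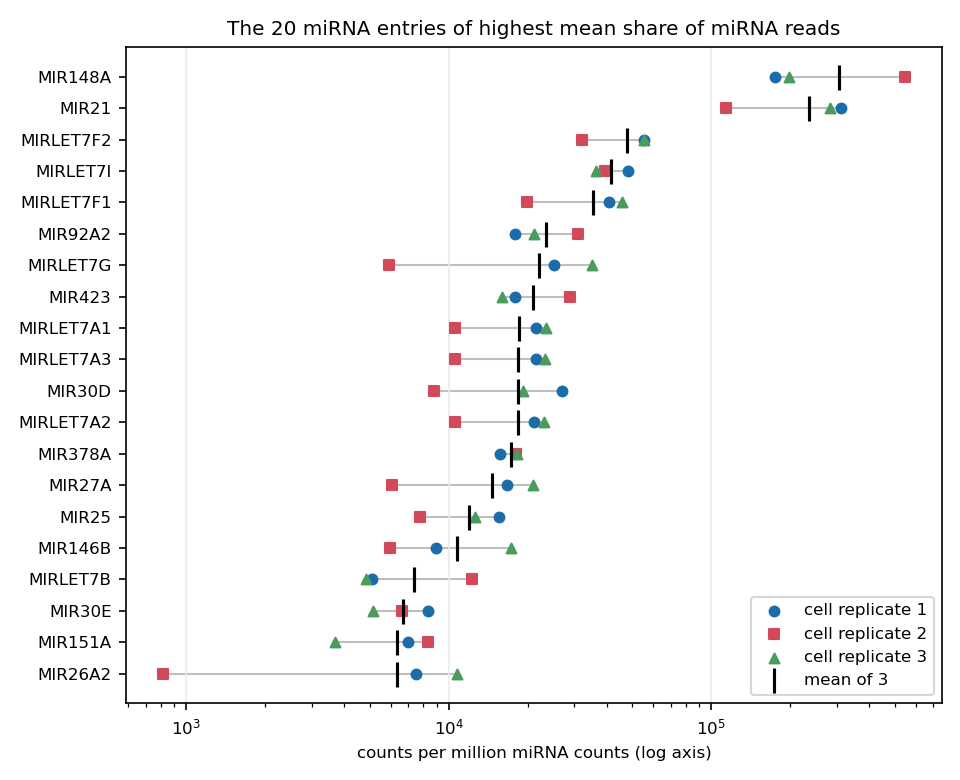
miRNA CPM (log axis) of the 20 miRNA entries with the highest mean, in the 3 MEC-1 cell libraries; points are libraries, grey lines span them and black ticks are means. MIR148A and MIR21 lie above all others in every library but exchange places in cell 2, and MIR26A2 spans from 817 in cell 2 to 10697 in cell 3.

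Grouped by the seed of the arm generally known as the main product, with near-identical entries counted once, 4 seeds led. Seeds of the opposite arms of the same hairpins, such as let-7-3p, come from the same hairpin counts and are left out. The seed CAGUGCA of miR-148a, miR-148b and miR-152 held 17.6%, 54.7% and 19.8%, nearly all of it from MIR148A. The seed AGCUUAU belonged to MIR21 alone, with 31.2%, 11.4% and 28.3%. The let-7 seed GAGGUAG held 20.6%, 12.5% and 21.1%. The seed AUUGCAC, shared by MIR92A2, MIR25, MIR363, MIR92B and MIR32, held 3.62%, 3.92% and 3.47%. Without cell 2 the 4 means were 18.7%, 29.8%, 20.9% and 3.55% in the same order. This last share varied least of the 4, at 3.67% ± 0.230 (SD, n = 3), although MIR25 was lowest and MIR92A2 highest in cell 2 on the miRNA CPM scale. Seeds were matched to 138 of the 151 detected miRNA entries. Entries on chromosome 8 were left out, as were entries without a RefSeq sequence. Those on chromosome 8 include MIR151A and MIR30D, which held 1.83% of miRNA reads in the mean.

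Of 17 miRNAs and miRNA genes linked to B cells and CLL, 11 had an entry and 7 were detected, against 11.1% of all miRNA entries. The median level of the 11 was 18.6 CPM against 0.0116 CPM over all miRNA entries. The 7 include MIR155HG, a long non-coding gene outside that background. MIR155HG, the host gene of miR-155, had 15535, 4408 and 10226 CPM. MIR155 had no entry of its own, and lay within an exon of MIR155HG whose length, 1276 nt, equals one block of the counted feature. With RNA under 200 nt as input, reads on this feature stand for short RNAs or fragments and cannot be split between miR-155 and the rest of the transcript. MIR150 was low, at 6.54, 1.32 and 16.3 CPM. The p53-induced MIR34A was not detected, at 0.896, 2.22 and 0.994 CPM, and MIR34B, MIR34C and MIR650 had no read in any library. MIR222 and MIR221, which repress the cell-cycle inhibitor p27, had means of 246 and 52.1 CPM, and MIR28, known from germinal-centre B cells, 18.6 CPM. MIR142, a general marker of blood cells, and MIR146A had no entry in the tables and were not analysed here. Of the markers set for the labelled cell type, MIR155HG, MIR150, MIR21, MIR181A1 and MIR181A2 had an entry and were detected, MIR150 at a low level, and MIR21 is not specific to B cells.

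Of 8 features of the miR-15 and miR-16 loci, 4 had an entry and 2 were detected, against 11.1% of all miRNA entries. MIR15A had no entry, so the miR-15a of the CLL locus was not measured. By mean miRNA CPM, MIR16-2 ranked 35th among the 1358 miRNA entries. MIR16-2, the copy on chromosome 3, had 458, 63.1 and 278 CPM. MIR16-1, the copy at the CLL locus on chromosome 13, had 38.8, 4.11 and 34.5 CPM. Both hairpins give the same miR-16-5p, yet MIR16-2 exceeded MIR16-1 between 8.06-fold and 15.3-fold in the 3 libraries. The host gene DLEU2, at 1.99, 0.808 and 1.41 CPM, and MIR15B, at 14.6, 0.643 and 11.9 CPM, missed the detection limit through cell 2.

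The miR-17-92 cluster, an oncogene best known from B-cell lymphoma, was counted through its host gene, and 7 of the 10 features of the cluster and its paralogs were detected. Over all miRNA entries, which leave out the host gene, 11.1% were detected. MIR17HG had 3318, 2468 and 2337 CPM, one of the narrowest ranges of all abundant features, and 6 miRNAs of the cluster without an entry lay in an exon that matched a counted block of 2705 nt. In its paralog on chromosome X, MIR92A2 had 2186, 1925 and 1414 CPM while its neighbour MIR363 had 211, 5.60 and 10.6 CPM. MIR106A, MIR18B and MIR20B of the same paralog were not detected. MIR92A1, the miR-92a copy of the miR-17-92 cluster, has no entry of its own, so which locus gave the MIR92A2 reads cannot be told. In the paralog on chromosome 7, MIR25 had 1886, 484 and 841 CPM, MIR106B had 147, 62.8 and 64.9 CPM and MIR93 had 94.0, 7.11 and 74.5 CPM. Per kilobase, MIR25 exceeded MIR93 between 10.8-fold and 64.9-fold.

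Hairpins of one cluster, which are cut from one primary transcript, differed in their counts to unequal degrees. In 6 of 15 clusters with at least a pair of detected members, the highest exceeded the lowest by more than 10-fold per kilobase in all 3 libraries, and in 3 by less than 4-fold. The 6 include the miR-106a-363 cluster, whose highest member is MIR92A2, and the reads of MIR92A2 need not come from that locus. They also include the let-7f-2-98 cluster, whose highest member, MIRLET7F2, shares the mature let-7f-5p with MIRLET7F1 on chromosome 9. In 14 of the 15, the highest and the lowest member kept their order in all 3 libraries. MIR27A exceeded MIR23A between 35.3-fold and 52.7-fold per kilobase, and MIR27B exceeded MIR23B between 17.6-fold and 21.1-fold. MIR30D exceeded MIR30B between 117-fold and 199-fold per kilobase. MIR181A1 exceeded MIR181B1 between 3.20-fold and 3.79-fold, and MIR222 exceeded MIR221 between 3.96-fold and 6.74-fold. MIR182 exceeded MIR183 only between 1.05-fold and 1.69-fold, and MIR191 exceeded MIR425 between 1.17-fold and 3.65-fold per kilobase. The exception in order was a pair on chromosome 22, where MIRLET7A3 had more reads than MIRLET7B in cells 1 and 3 and fewer in cell 2. The counts of MIRLET7A3 were near-identical to those of MIRLET7A1 and MIRLET7A2, so its reads need not come from chromosome 22. In the first pair of genes named, MIR27A and MIR23A ranged 5.41-fold and 5.23-fold in CPM between libraries, while their ratio stayed between 37.7 and 56.3.

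Copies of one mature sequence differed to unequal degrees. Of 18 mature sequences with copies at several loci, 8 had copies within 1.1-fold of each other in every library, both arms of let-7a and of miR-9 among them. Entries on chromosome 8 were left out of this comparison. The 3 let-7a hairpins differed by at most 1.01-fold, and MIR26A1 and MIR26A2 by at most 1.01-fold. Such equal values do not tell which locus was transcribed, and how reads with several matches were assigned is not given in the sources used here. For 3 sequences the copies differed by more than 2-fold in every library, which were miR-16-5p, miR-941 and miR-138-5p. The rest met neither mark in all libraries, such as let-7f-5p at 1.22-fold to 1.62-fold and miR-125b-5p at 1.84-fold to 5.92-fold. In all, 32 groups of 88 features had counts within 2% of each other in every library, and counting each group once removed from 1.43% to 2.76% of a library.

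Markers of other cell types were low or without reads, as most miRNA entries were: over all 1358 entries 11.1% were detected and 44.3% were at 0. Of the erythroid, platelet and myeloid entries, MIR486 had 13.4, 28.5 and 21.5 CPM, and MIR223 had 7.56, 0.0367 and 3.99 CPM. Of the liver and gut entries only MIR192 was detected, at 62.4, 4.88 and 27.2 CPM. Muscle miRNAs were detected in 0 of 7 entries, with 4 at 0 in all libraries, and their summed level ran from 0.496 to 1.27 CPM. Stromal and endothelial miRNAs were detected in 0 of 6 entries, with a summed level of 1.27 to 6.98 CPM. Pluripotency miRNAs were detected in 0 of 7 entries, with 6 at 0. The imprinted chromosome 14 cluster had 0 of 37 entries detected, with 25 at 0. Among neural miRNAs, MIR9-1 had 64.8, 19.4 and 21.2 CPM, with MIR9-3 near-identical to it, while MIR124-2 and MIR124-3 were at 0. Epithelial miRNAs were led by MIR200B at 36.0, 5.88 and 31.8 CPM, with 3 of 6 detected. No list of these took more than 0.106% of miRNA reads in any library.

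Long non-coding genes owed nearly all their reads to a few hosts of small RNAs. Of 37 such genes at 1 CPM or more in the mean, 36 were found in RefSeq and 23 of these hold at least 1 small RNA that lacks an entry of its own. Those 23 took 99.95% of the reads of the class. They hold 55 such small RNAs, of which 49 lie inside an exon of their host in GENCODE 29 and 19 inside an exon as long as one block of the counted feature. Reads of these small RNAs and reads of the host transcript therefore cannot be told apart in the tables.

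C17orf76-AS1, named SNHG29 in RefSeq, hosts SNORD49A, SNORD49B and SNORD65 and had 128315, 140534 and 133938 CPM. Its range was the narrowest of all features with a mean of at least 100 CPM. GAS5, the growth arrest-specific 5 gene, with 10 unlisted small RNAs in its span, SNORD44, SNORD47 and SNORD81 among them, had 116283, 68525 and 101457 CPM. SNHG5, the host of SNORD50A and SNORD50B, had 12079, 133315 and 26797 CPM and so stood far higher in cell 2 than in the other 2 libraries. SNHG1, with 8 C/D box snoRNAs in its span, had 16684, 29070 and 37182 CPM. Compared per kilobase, C17orf76-AS1 was the highest of the class in cells 1 and 3 and SNHG5 in cell 2. The nuclear RNAs MALAT1 and NEAT1 are far longer than the input RNA, so that their reads stand for fragments. MALAT1 had 142, 13.1 and 83.2 CPM and NEAT1 had 147, 11.2 and 85.0 CPM.

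C/D box snoRNAs were detected in 141 of 239 entries, and 59 of them reached 100 CPM in every library. SNORD2, within the span of the translation initiation factor gene EIF4A2 (chromosome 3, 186502585 to 186502653, plus strand, GRCh37), had 46273, 37528 and 66448 CPM. SNORD101, within RPS12, a gene for a protein of the small ribosomal subunit, had 57070, 25343 and 49014 CPM. SNORD63, within HSPA9, the gene of a mitochondrial chaperone, had 23888, 32856 and 35385 CPM. These 3, whose sequences are printed with their boxes, had the highest means of the class on both the CPM and the RPKM scale. The range of SNORD101 overlapped those of SNORD2 and SNORD63, while SNORD2 lay above SNORD63 without overlap. SNORD18A, within the ribosomal protein gene RPL4, had 4822, 21161 and 14338 CPM. SNORD88C had 9027, 16786 and 10265 CPM, and SNORD104 had 2380, 22254 and 9257 CPM.

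The most abundant C/D box snoRNAs were mostly lowest in cell 1. Of 28 with a mean of at least 1000 CPM, 23 were lowest in cell 1, 5 in cell 2 and none in cell 3 (see the plot of host genes and snoRNAs). Of 15 miRNA entries past the same level, 3 of them the near-identical let-7a hairpins, none was lowest in cell 1, 11 were lowest in cell 2 and 4 in cell 3. With the level lowered to 100 CPM, 38 of 79 C/D box snoRNAs were lowest in cell 1, 34 in cell 2 and 7 in cell 3, and of 44 miRNA entries 0, 31 and 13. CPM are shares, so a class that takes more of a library leaves less for the others.

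**Figure D3:**
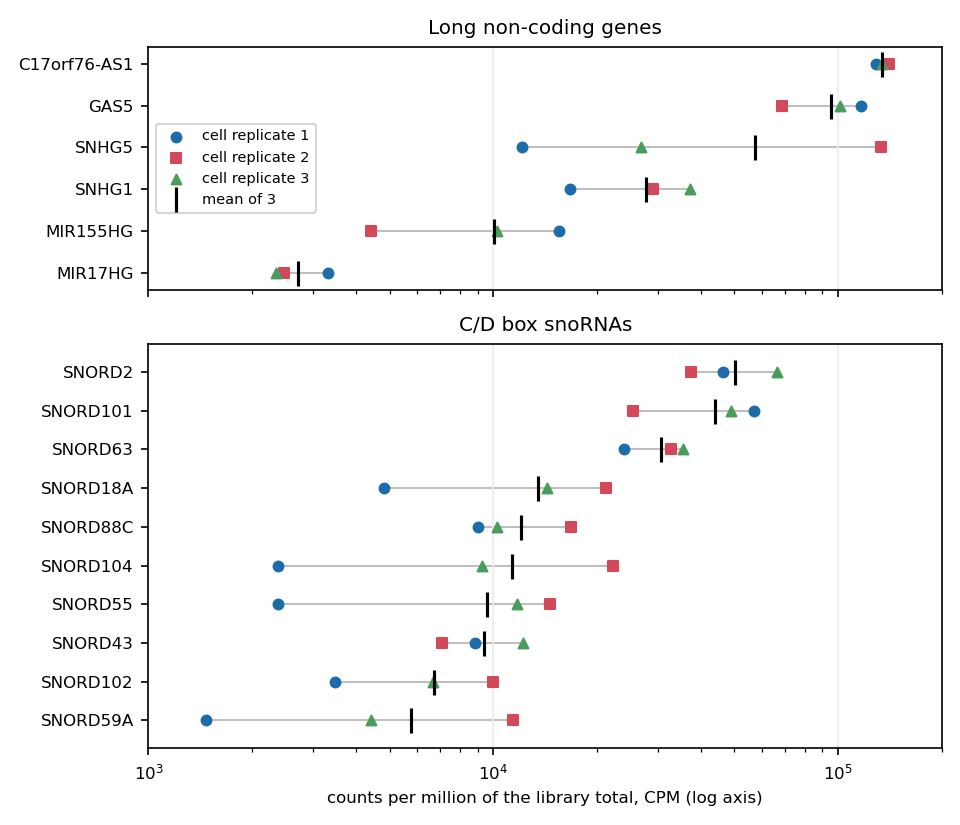
CPM (log axis) of the 6 long non-coding genes and the 10 C/D box snoRNAs of highest mean CPM in the 3 MEC-1 cell libraries; points are libraries, grey lines span them and black ticks are means. C17orf76-AS1 is nearly the same in all 3 libraries, SNHG5 reaches 133315 CPM in cell 2 against 12079 in cell 1, and SNORD104, SNORD55 and SNORD59A are lowest in cell 1.

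By host gene, snoRNAs within ribosomal protein genes gave 40.4% ± 4.82 (SD, n = 3) of the reads of C/D box entries, and all 39 with reads were detected. Those within translation factor genes, 6 in number and all detected, gave 20.7% ± 5.09 (SD, n = 3), of which SNORD2 alone gave 19.9% and the other 5 together 0.749%. Those within other genes gave 33.8% ± 8.62 (SD, n = 3), with 88 of 133 detected, and those for which no host was found 5.06% ± 1.45 (SD, n = 3). Of all C/D box entries with reads, 141 of 187 were detected. The undetected ones within other genes include copies of SNORD114 in MEG8 and of SNORD115 in SNHG14. Host spans were taken from a newer genome build than the counts, by gene name. These shares cover only C/D box snoRNAs with an entry. Those without one, in C17orf76-AS1, GAS5, SNHG5 and SNHG1 among other hosts, are left out.

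SnoRNAs that share a host gene, and so a primary transcript, differed widely. In TAF1D, which encodes a subunit of an RNA polymerase I factor, SNORD6 exceeded SNORA40 between 1265-fold and 3125-fold per kilobase, with 8 snoRNAs counted. SNORD6 is a C/D box and SNORA40 an H/ACA snoRNA, so their ratio also holds the difference in level between those classes. The other C/D box snoRNA counted in TAF1D, SNORD5, had a mean of 659.46 CPM against 4034.5 CPM for SNORD6. The pairs named next are of C/D box snoRNAs alone. In RPL3, SNORD43 exceeded SNORD83B between 147-fold and 346-fold per kilobase. In RPL13A, SNORD32A exceeded SNORD35A between 44.8-fold and 126-fold per kilobase. In RPL17, by contrast, SNORD58C exceeded SNORD58A only between 1.13-fold and 1.84-fold per kilobase. In RACK1 the order of SNORD95 and SNORD96A changed between libraries, with ratios of 0.717 to 2.15 per kilobase.

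H/ACA snoRNAs were detected in 56 of 100 entries but at far lower levels per kilobase than the leading C/D box snoRNAs. SNORA64 had 952, 2358 and 3144 RPKM, SNORA18 had 1260, 1107 and 3632 RPKM and SNORA7A had 1041, 2331 and 1421 RPKM. For comparison, SNORD2 had 670625, 543890 and 963014 RPKM. None of the 4 neighbouring pairs among the 5 highest H/ACA snoRNAs kept its order in all 3 libraries. SNORA74 ranged 10.9-fold, from 22.5 CPM in cell 2 to 245 CPM in cell 3. The scaRNAs, which guide the modification of spliceosomal snRNAs, were led by SCARNA9 at 356, 216 and 266 CPM and by SCARNA22 at 92.1, 186 and 63.6 CPM. Per kilobase SCARNA22 was above SCARNA9 in cell 2 alone. SCARNA9, at 354 nt, is longer than the input RNA, so its reads may stand for fragments.

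The U3, U8 and U13 snoRNAs were detected in all 6 entries. U3 and U8 act in the cutting of the rRNA precursor rather than in its methylation. SNORD118 (U8) had 162, 76.3 and 220 CPM. SNORD13 (U13) had 102, 77.9 and 379 CPM. SNORD3A, an entry of U3 much longer than the input RNA, had 74.2, 46.6 and 148 CPM. All 3 were highest in cell 3 and lowest in cell 2.

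Reads of rRNA fell on 4 of 20 entries, and the other 16, all 5S copies, were at 0. RNA5-8S5 was the highest per kilobase in all 3 libraries, at 534496, 628846 and 347806 RPKM. RNA28S5 had 26670, 12068 and 26085 RPKM and RNA18S5 had 4373, 3534 and 3731 RPKM. Both are longer than 200 nt, so their reads stand for fragments. RNA5S9 had 95.9, 123 and 77.8 RPKM, and these 4 ranges did not overlap. How reads that match several 5S copies were assigned is not given, so these 5S values may miss reads and do not measure the level of 5S rRNA.

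The snRNAs of the spliceosome were led by a U5 variant. RNU5E-1 had 639, 571 and 807 CPM, and all 5 U5 entries were detected. RNU7-1, the U7 RNA of histone message processing, had 377, 126 and 129 CPM. RNU12 of the minor spliceosome had 200, 171 and 260 CPM and RNU11 had 53.5, 22.1 and 69.1 CPM, while RNU4ATAC and RNU6ATAC missed the detection limit through cell 2. RNU1-1 and its copies were near-identical at 96.8, 36.9 and 163 CPM. The 7SL RNAs of the signal recognition particle were led by RN7SL1 at 72.4, 24.8 and 61.0 CPM, with RN7SL2 at 67.5, 19.8 and 55.2 CPM and RN7SL3 at 6.78, 1.40 and 3.68 CPM. The 7SL entries are 297 to 300 nt long, beyond the input RNA, so their reads may stand for fragments. Telomerase RNA, TERC, had 2.49, 1.60 and 3.04 CPM.

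RN7SK, the only 7SK entry, had 13741, 550 and 16196 CPM. Its 29.4-fold range, set by cell 2, was the widest of the 197 features with a mean of at least 100 CPM. The entry is 331 nt long, beyond the input of RNA under 200 nt, so its reads may stand for fragments.

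All 4 Y RNAs were detected. RNY4 had 7932, 5363 and 4457 CPM and RNY1 had 7685, 2487 and 7716 CPM. RNY3 followed at 957, 343 and 922 CPM and RNY5 at 261, 96.8 and 250 CPM. Per kilobase RNY4 was above RNY1 in cells 1 and 2 and below it in cell 3, while RNY3 exceeded RNY5 without overlap of ranges. All 4 vault entries were detected too. VTRNA2-1, an inhibitor of the kinase PKR that is no part of the vault particle, had 492, 282 and 573 CPM. VTRNA1-1 had 82.3, 33.5 and 138 CPM, VTRNA1-2 had 3.78, 21.4 and 5.74 CPM and VTRNA1-3 had 5.84, 5.09 and 5.56 CPM. VTRNA1-2 was thus the one vault RNA highest in cell 2.

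Mitochondrial RNAs were detected in 24 of 25 entries. MT-TF, the tRNA for phenylalanine, was the highest per kilobase in all 3 libraries and steady, at 3284, 3872 and 3692 CPM. MT-RNR1 and MT-RNR2, the rRNAs of the mitochondrial ribosome, had 2171, 262 and 2431 CPM and 2373, 403 and 2601 CPM. MT-TH had 524, 48.9 and 720 CPM and MT-TS2 had 669, 61.2 and 790 CPM. Of the 13 mitochondrial features with a mean of at least 100 CPM, 11 were lowest in cell 2, and MT-TF was not among them. The tRNA-length features were detected in 267 of 625 entries, and the 8 highest were one group of near-identical entries, led by 1 with 2512, 1548 and 1214 CPM. With each such group counted once the class took 0.914% ± 0.315 (SD, n = 3) of reads in place of 2.29%.

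The 3 libraries ranked features alike but differed far beyond counting error. Over the 716 detected features, Pearson's correlation of log2(CPM + 1) was 0.946 between cells 1 and 3, 0.890 between cells 1 and 2 and 0.892 between cells 2 and 3. Spearman's correlation was 0.928, 0.842 and 0.822 for the same pairs. These are correlations across features, which are not independent replicates and share each library's scaling. Over the 151 detected miRNAs Pearson's correlation was 0.966, 0.900 and 0.875. The lowest class was that of the H/ACA snoRNAs, with 0.846, 0.680 and 0.722 over 56 features. Between cells 1 and 3, 64.4% of features lay within 2-fold of each other, against 44.4% between cells 1 and 2 and 47.2% between cells 2 and 3. Depending on the pair, 77.5% to 86.4% of features with at least 10 counts differed by more than the 95% counting interval, so no pair agreed within sampling noise as one library deposited under 2 names would.

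**Figure D4:**
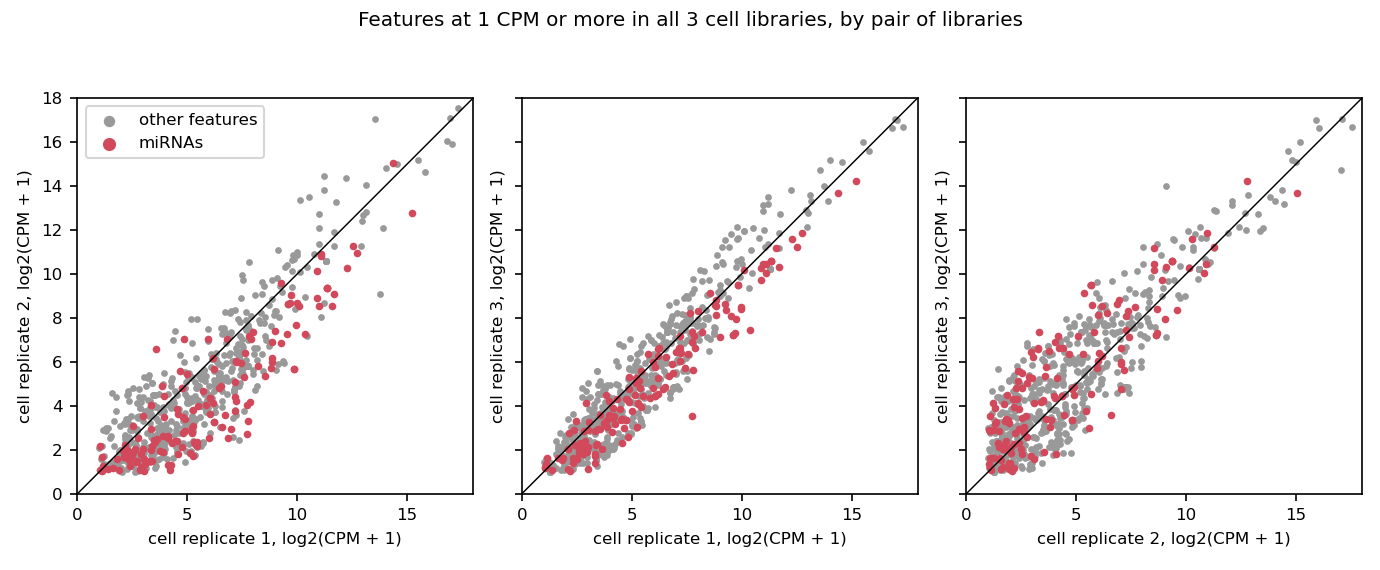
log2(CPM + 1) of the 716 detected features in each pair of MEC-1 cell libraries, with the 151 miRNAs in red and all other features in grey; the line marks equal values. Points scatter least between cells 1 and 3 (Pearson 0.946), and miRNAs lie mostly below the line between cells 1 and 2.

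The common biological coefficient of variation (BCV), which edgeR fits as the spread between libraries beyond counting error, was 0.638 over 952 features. It was 0.659 for miRNAs, 0.644 for C/D box snoRNAs, 0.595 for long non-coding genes and 0.593 for tRNA-length features. Mitochondrial RNAs had the highest value, 0.858, followed by H/ACA snoRNAs at 0.737, and scaRNAs the lowest, 0.469. Without cell 2 the value over all features was 0.494 and that of miRNAs 0.471. Without cell 1 it was 0.702 and without cell 3 0.666 over all features.

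Among the 197 features with a mean of at least 100 CPM, the median fold range over the 3 libraries was 3.62. In 39 of them the libraries lay within 2-fold, in 77 they spread over more than 4-fold and in 13 over more than 10-fold. Cell 2 was the lowest library for 114 of the 197, and for 53 of the 77 that spread over more than 4-fold. After RN7SK the widest were MIR26B with 23.8-fold, MIR26A1 with 18.1-fold and its near-identical copy MIR26A2, MT-TH with 14.7-fold, MIR191 with 13.7-fold, MIR98 and MIR186 with 13.6-fold each and MT-TS2 with 12.9-fold. SNHG5 was the tenth and the one of these 10 that was highest in cell 2. The 3 miR-26 entries, which share the seed UCAAGUA, thus held 3 of the 4 widest ranges, but MIR26A1 and MIR26A2 are near-identical and do not count as separate cases. The narrowest after C17orf76-AS1 were SNORD70 at 1.18-fold, MT-TF at 1.18-fold, SNORD119 at 1.23-fold and RNA18S5 at 1.24-fold.

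Set against the mean of cells 1 and 3, cell 2 differed by class. The median log2 difference over all 716 detected features was -0.75 on the log2(CPM + 1) scale, -0.32 with TMM factors and -0.01 with DESeq2 size factors, so class medians are given relative to that of all features. Mitochondrial RNAs were at -1.87, with 22 of 24 features lower in cell 2 than in both other libraries. H/ACA snoRNAs were at -0.92, with 45 of 56 lower than in both, and snRNAs at -0.76, with 20 of 22. Long non-coding genes were at -0.40. miRNAs were at -0.36, with 99 of 151 lower and 17 higher than in both other libraries. C/D box snoRNAs were at 0.19 and tRNA-length features at 0.49. The signs of these 7 classes were the same under TMM factors and under DESeq2 size factors. This was close to fixed in advance, since a factor shifts all features of a library nearly alike and cancels in relative medians. Over all features 388 of 716, or 54.2%, were lower in cell 2 than in both other libraries.

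**Figure D5:**
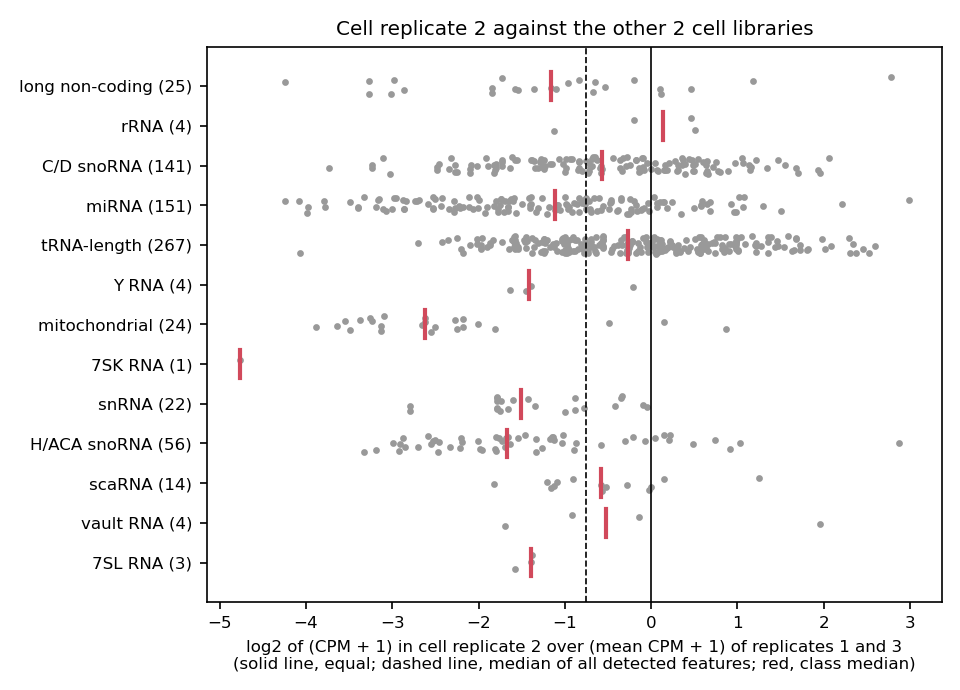
Log2 of (CPM + 1) in cell 2 over (mean CPM + 1) of cells 1 and 3 for each of the 716 detected features, by RNA class, with the number of features in brackets; red marks are class medians, the solid line marks equal values and the dashed line the median of all features, -0.75. Mitochondrial RNAs, H/ACA snoRNAs and snRNAs lie left of the dashed line and tRNA-length features right of it.

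By length, the detected features over 200 nt had the lower medians in cell 2. The median log2 difference was -1.24 for the 31 of them that hold no unlisted small RNA, with 29 below 0, and -1.26 for the 20 that do, with 16 below 0. It was -0.71 for the 665 features up to 200 nt, with 457 below 0. Among miRNAs, the share of G and C in the hairpin was set against the log2 difference of cell 2 in miRNA CPM over 116 hairpins, near-identical ones counted once. Hairpins on chromosome 8 were left out. Pearson's correlation across hairpins was 0.146, and the median difference was -1.08, -0.34 and -0.51 in the 39, 38 and 39 hairpins of lowest, middle and highest GC content. The part of RNA quality, input and library preparation in the values of cell 2 was not tested. In bulk RNA, fewer cells with a given RNA and less of it per cell cannot be told apart.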

How the data were processed

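The deposited tables give unnormalized counts of reads made with featureCounts, per the file headers. Adapter trimming (cutadapt 1.1), alignment (STAR), DESeq2 1.8.2 and the GRCh37 build come from the submitters' processing notes. How strand and reads with several matches were handled is not given in the sources used here. Reads of features that overlap or share sequence may therefore be counted at one, several or none of them.

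The 3 cell tables, grouped by their sample titles, were read in Python 3.11.15 (numpy 2.4.6, pandas 2.3.3, scipy 1.17.1, matplotlib 3.10.9). Counts were scaled by the library total to CPM, by the miRNA total to miRNA CPM, and by counted length to RPKM. Features were placed in 13 classes by symbol or, for numbered features, by chromosome. Numbered features on the mitochondrial chromosome were classed as mitochondrial and all others as tRNA-length, with no limit on length. Detection needed 1 CPM in all 3 libraries. Correlations used log2(CPM + 1). Features of a class within 2% of each other in every library, with at least 50 counts in each, were called near-identical. The BCV was fitted with edgeR 4.0.16 in R 4.3.3 on raw counts, with an intercept, TMM factors (1.29, 0.800 and 0.973) and its default low-count filter, as the common value over all features and by class, a step tested on simulated data. No group contrast exists, so no differential test was made.

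Mature miRNAs came from RefSeq, matched by symbol for 1217 of 1358 entries, with all entries on chromosome 8 left out. SnoRNA sequences, host spans and exons came from RefSeq and GENCODE 29. All of these are on GRCh38, and printed positions of features are those of GRCh37. Box letters were searched on the transcribed strand alone.

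Named are the 20 miRNAs of highest mean miRNA CPM, the leading features of every other class by CPM or RPKM, members of the lists described, and the 10 features of widest fold range with a mean of at least 100 CPM. SNORD70, SNORD119, the pairs within clusters and host genes, and the copies of one mature sequence were chosen after their values were seen. The members and lists were chosen with earlier results of these data known. Alternatives covered filters, scaling (TMM, DESeq2 1.42.0 size factors), near-identical features, pseudocounts, length and each library left out.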

Additional observations from a re-analysis of the deposited data

How the results depend on the processing

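Over 13 results and 84 alternative values, 71 stayed within the spread between libraries, or within 1.5-fold for a count, and 13 did not. Leaving out 1 of 3 libraries cannot move a mean share past that spread, so those values were bound to be among the 71. Without RNA5-8S5 the mean share of long non-coding genes was 39.0% and that of rRNA 13.7%. Without all rRNA features, long non-coding genes took 45.03% and C/D box snoRNAs 34.6%. The rise of the other classes follows from the smaller total, and the fall of rRNA from the removal of its main feature. The number of detected miRNAs was 245 at 10 counts in all libraries, 70 at 10 CPM and 757 with 1 count in any library, against 151. DESeq2's estimates gave a median BCV of 0.526 over all features and 0.518 over miRNAs, which is a median of features and not a common value. With each library left out in turn, the correlation ran from 0.890 to 0.946 over all features and from 0.875 to 0.966 over miRNAs, and the BCV from 0.494 to 0.702 and from 0.471 to 0.735. In each case the value without cell 2 was the one that showed the closest libraries. No paired analysis was possible because the 3 cell libraries form 1 group and are compared with no other. With libraries thinned to the smallest total, 148 miRNAs were detected. The limits are 3 libraries of 1 line, hairpin counts without arms, unlisted small RNAs within host genes, and near-identical entries.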

Other observations

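MIR99A had 1313, 152 and 173 CPM, while MIR99B, MIR100 and MIR125A of the same families stayed below 1 CPM in all 3 libraries. MIR125B2 was detected at 22.4, 4.35 and 3.93 CPM, and MIR125B1, at 7.40, 0.734 and 2.13 CPM, missed the detection limit through cell 2. MIR7-1, MIR7-2 and MIR7-3, hairpins of miR-7 on 3 chromosomes, had means of 461, 440 and 437 CPM. The miR-181 family, known from lymphocyte development, was led by MIR181A2 at 604, 115 and 396 CPM and MIR181A1 at 458, 70.9 and 370 CPM, with 5 of 6 members detected and MIR181C the one missed.

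Of 27 miRNA entries that lie within other structured RNAs or are otherwise doubtful, 7 were detected and together took 0.215% ± 0.0561 (SD, n = 3) of miRNA reads. MIR720, since regarded as a tRNA fragment, led them at 61.1, 132 and 63.7 CPM. MIR3607, which overlaps a C/D box snoRNA, had 28.4, 6.32 and 38.3 CPM.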
